A study of Homo sapiens with 6 samples.

Results

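The bile acid transport and FXR axis was followed in A549, an established cell line from a human lung adenocarcinoma, through 7 listed genes: both subunits of the exporter OST (SLC51A and SLC51B), the bile acid receptor FXR (NR1H4), its targets SHP (NR0B2) and FGF19, and the bile acid importers SLC10A1 and SLC10A2. A gene was measured where the platform annotation gave a probe set its symbol, and this held for 6 of the 7 genes among the 22395 genes tested. No probe set carried the symbol NR1H4 in that annotation, so FXR itself was not analysed here, and each of the 6 others had 1 probe set. The cells were exposed to Comp.4 at 2 µM, to Comp.2 at 2 µM or to vehicle, starting 24 h after plating, and RNA was taken 2 days later. The title of the series calls the compounds sequence-specific inhibitors of histone acetyltransferases, and the question was which transcripts each of them altered. Each group held 2 whole-transcript arrays of this 1 cell line, and the labels do not say that the replicates were separate cultures, so p-values reflect the spread between these arrays alone, and that spread may be technical. The members were chosen by role around SLC51B, and SLC51B was selected on its measured log2 rise for Comp.4 against vehicle in these arrays. Its values are therefore a description with no test, and the Comp.4 against vehicle values of the other members are given in the same way.

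Bile acids are made from cholesterol in hepatocytes, secreted into the gut, taken up again by ileal enterocytes and returned to the liver. SLC10A2 is the sodium-dependent importer of the ileal enterocyte and SLC10A1 that of the hepatocyte, whereas SLC51A and SLC51B together form the facilitative exporter of the basolateral membrane. FXR, bound as a heterodimer with RXR to inverted repeats of the AGGTCA half-site, switches on SLC51A, SLC51B, NR0B2 and FGF19 when bile acids accumulate. NR0B2 is an atypical nuclear receptor that represses bile acid synthesis genes, and FGF19 is the ileal hormone that acts on hepatocytes through FGFR4 and its coreceptor KLB.

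Among the measured members SLC51B had a signal well above background, so its promoter is shown with that of SLC51A, its partner subunit. The windows are RefSeq sequences of GRCh38.p14 that run from 250 bases before to 50 bases after the annotated start, 300 bases in all. Capitals mark the best match to the inverted repeat AGGTCA, N (any base), TGACCT, which reads the same on both strands and contains the half-site AGGTCA.
SLC51B, chr15:65045137-65045436, plus strand: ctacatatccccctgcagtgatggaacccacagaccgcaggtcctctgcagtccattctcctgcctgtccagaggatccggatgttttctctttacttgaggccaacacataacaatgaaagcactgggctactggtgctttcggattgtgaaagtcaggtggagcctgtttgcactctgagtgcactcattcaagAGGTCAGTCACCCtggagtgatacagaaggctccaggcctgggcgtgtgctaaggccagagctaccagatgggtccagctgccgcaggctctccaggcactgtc
SLC51A, chr3:196216284-196216583, plus strand: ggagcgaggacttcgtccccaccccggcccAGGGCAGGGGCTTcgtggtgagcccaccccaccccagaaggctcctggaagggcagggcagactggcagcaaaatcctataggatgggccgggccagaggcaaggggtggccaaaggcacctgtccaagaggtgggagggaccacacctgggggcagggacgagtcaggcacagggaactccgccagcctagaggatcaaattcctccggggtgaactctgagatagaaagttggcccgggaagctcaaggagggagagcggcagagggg
The SLC51B match lay at chr15:65045333-65045345, positions -54 to -42 from the start, and had 2 mismatches outside the free middle base. Such a match, with at most 2 mismatches, was found in 1.15% of the 27305 promoters searched. The best SLC51A window had 4 mismatches, a level reached by 52.9% of promoters, and held neither AGGTCA nor its complement TGACCT, which 13.9% of promoters held. Among the other members with a promoter in the table, the best window of SLC10A1 had 2 mismatches, that of SLC10A2 had 3 and that of NR1H4 had 4. The table gave no promoter for NR0B2 or FGF19. These matches describe letters in the window and were chosen for search after the sequences had been seen.

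The 6 arrays were alike in scale, with medians between 4.55 and 4.56 on the deposited log2 scale and Pearson's r between arrays, across probe sets, of 0.989 to 0.994. Of 10 markers written for A549 epithelium, 7 were brighter than the 95th percentile of 358 olfactory receptor genes (log2 5.23), among them KRT8, KRT18, EPCAM, CDH1 and AKR1B10. The alveolar lineage genes NKX2-1, SFTPB and SFTPC were dimmer than that mark. Probe sets differ in affinity, so this mark, and the median gene at log2 5.35, only tell dim probe sets from bright ones and do not rank genes by transcript number.

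SLC51B, the small subunit that OST needs to reach the membrane, was the 1 measured member above the median gene. Its log2 levels were 7.82 and 7.83 in the Comp.4 arrays, 7.49 and 7.55 in the Comp.2 arrays and 6.94 and 7.12 in the vehicle arrays. Both Comp.4 arrays lay above both Comp.2 arrays, which in turn lay above both vehicle arrays. All genes together showed this order in 2.9% of cases (650 of 22395). SLC51B was selected on its rise from vehicle to Comp.4, so part of this order was fixed in advance. The share is therefore no measure of how unusual the gene is.

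Under Comp.4, SLC51B averaged log2 7.83 ± 0.0013, against 7.03 ± 0.13 under vehicle (mean ± SD, n = 2 each). The difference was 0.80 (SE 0.09), or 1.74-fold. Across the table, 20 genes had a larger rise, 11 of them among the 11197 genes brighter than the median gene. Counting members past an adjusted p of 0.05 in limma gave 1 of 6, SLC51B, where all genes gave 0.147%. Since this is the contrast for which the gene was listed, nothing is read from that count.

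Under Comp.2, SLC51B averaged log2 7.52 ± 0.05, against 7.03 ± 0.13 under vehicle (mean ± SD, n = 2 each). This difference was 0.49 (SE 0.09), or 1.40-fold. A larger rise was found for 140 genes. The comparison uses the same vehicle arrays as the one that picked SLC51B, so the likeness of the directions is no separate evidence. The spread of the vehicle arrays touched both values: without vehicle replicate 1 the differences were 0.70 under Comp.4 and 0.40 under Comp.2, and without vehicle replicate 2 they were 0.89 and 0.58. In bulk RNA a change in every cell and a change in a part of the cells cannot be told apart.

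The compounds were compared as 1 pair, at the same dose and day. SLC51B was log2 0.30 (SE 0.09) higher under Comp.4 than under Comp.2, or 1.24-fold, with a 95% interval of 0.10 to 0.51. The Comp.4 arrays in this contrast are those for which the gene was listed, and 844 genes were higher by a larger amount.

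**Figure D1:**
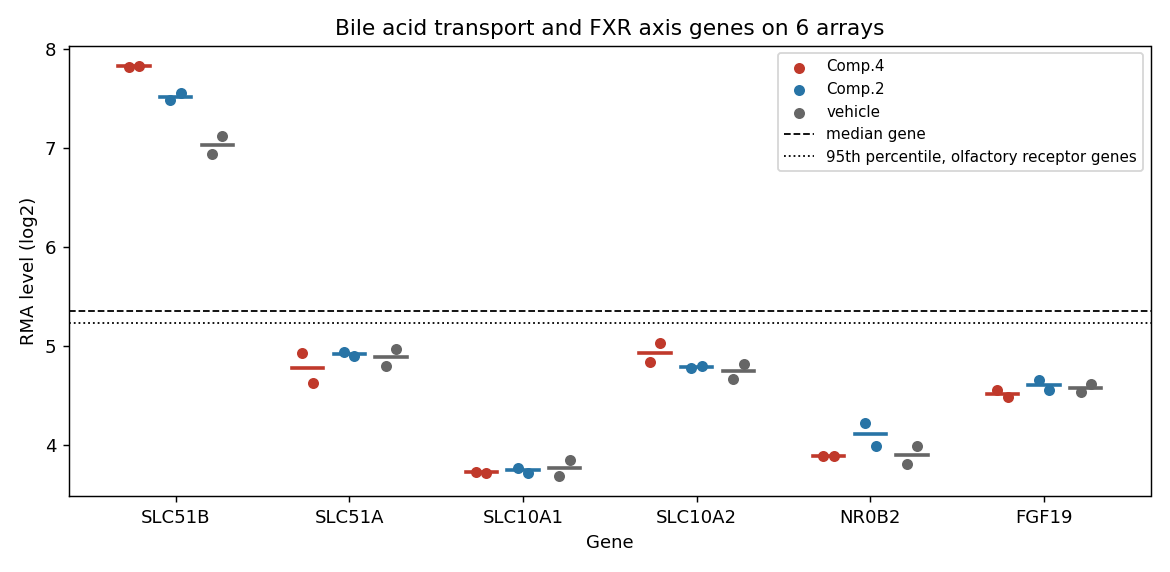
Log2 level (vertical axis) of the 6 measured genes (horizontal axis) on the 6 arrays; points are arrays, short bars are means of 2, and the groups run Comp.4, Comp.2, vehicle within each gene. SLC51B lies above the dashed line of the median gene (5.35) and its groups do not overlap, while the other 5 genes lie below the dotted line at the 95th percentile of olfactory receptor genes (5.23).

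SLC51A, the larger subunit with which SLC51B forms the working exporter, did not show the pattern of its partner. Its log2 levels were 4.93 and 4.62 under Comp.4, 4.94 and 4.89 under Comp.2 and 4.80 and 4.97 under vehicle, so that all 3 groups overlapped. The 2 Comp.4 arrays of SLC51A lay farthest apart. The difference was -0.11 (95% interval -0.39 to 0.17) for Comp.4 against vehicle. It was 0.03 (-0.25 to 0.31) for Comp.2 against vehicle, where limma's adjusted p was 0.948. Comp.4 against Comp.2 gave -0.14 (-0.42 to 0.14), with an adjusted p of 0.630 in limma. At log2 4.86 on average the SLC51A probe set was brighter than 40.7% of genes, against 80.5% for SLC51B. RMA values level off towards background, so differences of dim genes come out smaller than they are.

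The importers were dim in all groups. SLC10A1, the hepatocyte importer, had log2 levels of 3.73 and 3.72 under Comp.4, 3.76 and 3.72 under Comp.2 and 3.69 and 3.85 under vehicle, and both treated groups fell inside the range of the vehicle arrays. Its difference was -0.05 (95% interval -0.24 to 0.15) for Comp.4 against vehicle and -0.03 (-0.22 to 0.17) for Comp.2 against vehicle, the second with an adjusted p of 0.931 in limma. Between the compounds the SLC10A1 difference was -0.02 (-0.21 to 0.18).

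SLC10A2, the ileal importer, had log2 levels of 4.84 and 5.03 under Comp.4, 4.78 and 4.79 under Comp.2 and 4.67 and 4.82 under vehicle. Both Comp.4 arrays lay above the other 4 arrays, the lower of them by a narrow margin. Non-overlap of this kind was common: 27.2% of all genes had both Comp.4 arrays above both vehicle arrays, and 23.7% had both above the Comp.2 arrays. The SLC10A2 difference was 0.19 (95% interval -0.04 to 0.41) for Comp.4 against vehicle. Comp.2 against vehicle gave 0.04 (-0.19 to 0.26, adjusted p = 0.914 in limma), and Comp.4 against Comp.2 gave 0.15 (-0.08 to 0.37, adjusted p = 0.513 in limma).

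The FXR targets that carry the feedback signal were dim in all groups as well. NR0B2, the repressor SHP, had log2 levels of 3.89 and 3.89 under Comp.4, 4.23 and 3.98 under Comp.2 and 3.81 and 3.98 under vehicle. The Comp.4 arrays lay within the vehicle range, and the second Comp.2 array equalled the higher vehicle array. Its difference was -0.01 (95% interval -0.26 to 0.24) for Comp.4 against vehicle. Comp.2 against vehicle gave 0.21 (-0.04 to 0.46), which did not pass in limma (adjusted p = 0.516). Both Comp.4 arrays were below both Comp.2 arrays, as for 21.6% of all genes, with a difference of -0.22 (-0.47 to 0.04) that did not pass in limma (adjusted p = 0.402).

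FGF19, the hormone of the ileum, had log2 levels of 4.56 and 4.48 under Comp.4, 4.66 and 4.55 under Comp.2 and 4.54 and 4.62 under vehicle. The groups overlapped throughout. Its difference was -0.06 (95% interval -0.25 to 0.13) for Comp.4 against vehicle and 0.03 (-0.16 to 0.21) for Comp.2 against vehicle, with an adjusted p of 0.937 in limma for the second. Between the compounds the FGF19 difference was -0.09 (-0.27 to 0.10).

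No member passed an adjusted p of 0.05 in the limma fit reported here for Comp.2 against vehicle, where 0.196% of all genes did. The same held for Comp.4 against Comp.2, where 0.371% did. At an unadjusted p under 0.05 in limma, 1 of 6 members (SLC51B) was counted in each of these contrasts, against 11.2% and 15% of all genes. Each contrast shares arrays with the one for which SLC51B was listed, so nothing is read from these counts. The median log2 difference of the 6 members was -0.03 for Comp.4 against vehicle, where that of all genes was 0.02. For Comp.2 against vehicle the median was 0.04, against 0.00 for all genes (0.00399). The 5 members other than SLC51B were all dimmer than the 95th percentile of olfactory receptor genes, and a change of such genes could go unseen in these values.

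**Figure D2:**
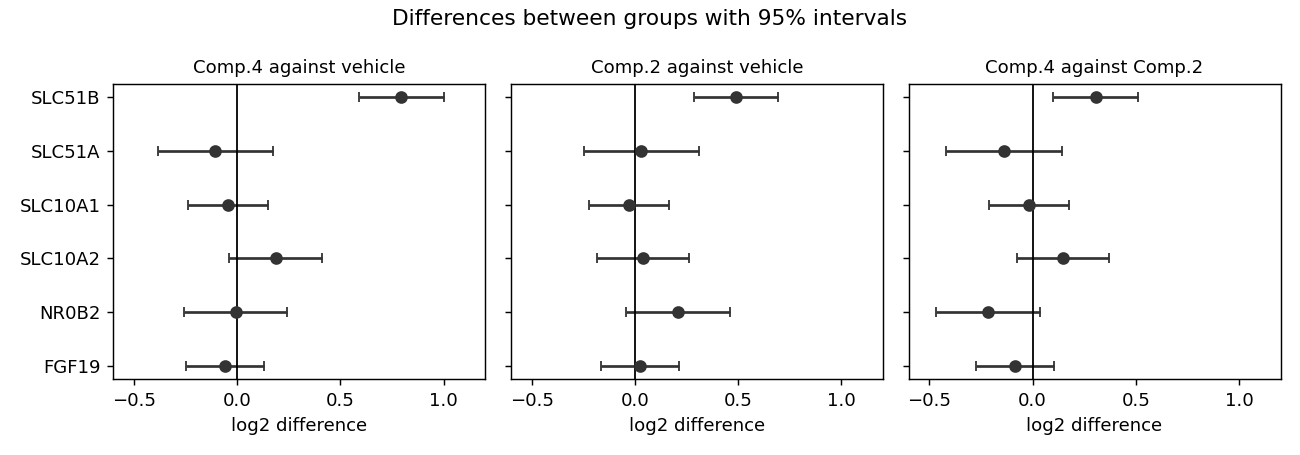
Log2 difference (horizontal axes) of each gene (vertical axis) in the 3 contrasts; points are differences of means of 2 arrays and bars are 95% intervals of the fit to all genes. The interval of SLC51B lies above 0 in each panel, a description since the gene was listed for its rise, and those of the other 5 genes span 0.

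The wider bile acid pathway was described from 4 lists with 84 distinct genes, of which 76 had a probe set of their own. None of the 76 passed for Comp.4 against vehicle in limma, where 19 had an unadjusted p under 0.05, against 16.5% of all genes. With a trend of variance on the mean 10 passed, where 5.47% of all genes did, and 5 of 42 passed among the brighter genes, where 7.49% of all brighter genes did. For Comp.2 against vehicle 1 passed, the complement gene C3, and for Comp.4 against Comp.2 again only C3 did. The same settings gave 7 of 76 and 5 of 42 for Comp.2 against vehicle, beside 1.73% and 2.08% of all genes, and 9 of 76 and 4 of 42 for Comp.4 against Comp.2, beside 4.8% and 6.39%. The median difference of the 76 genes was 0.03 for Comp.4 and 0.01 for Comp.2 against vehicle, close to the medians of all genes.

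Among 17 other bile acid transporters none passed in any contrast in limma, with 3 under an unadjusted p of 0.05 for Comp.4, and 1 for Comp.2, against vehicle, where all genes had 16.5% and 11.2%. The largest transporter difference for Comp.4 against vehicle was that of ABCB1, at -0.33 (SE 0.08, adjusted p = 0.135 in limma). For Comp.4 against Comp.2 it was that of SLCO4A1, at 0.60 (SE 0.11, adjusted p = 0.101 in limma). Both genes were dimmer than the median gene. Both passed for Comp.4 against Comp.2 with a variance trend, where 4.8% of all genes did. The canalicular export pumps of hepatocytes were split in signal. ABCB11, the bile salt export pump, was dim, with log2 3.99 and 3.75 under Comp.4, 3.69 and 3.66 under Comp.2 and 3.65 and 3.77 under vehicle. ABCC2, the conjugate export pump, was bright, with 10.59 and 10.54 under Comp.4, 10.74 and 10.78 under Comp.2 and 10.78 and 10.74 under vehicle. ABCC2 was lower in both Comp.4 arrays than in the other 4, by -0.20 (SE 0.07) against vehicle, and did not pass in limma (adjusted p = 0.243). Taken separately, 22.2% of all genes had both Comp.4 arrays below both vehicle arrays and 21.6% below both Comp.2 arrays. ABCC4, a basolateral export pump, had -0.24 (SE 0.09, adjusted p = 0.240 in limma) for Comp.4 against vehicle. ABCC3, the basolateral pump that exports conjugates beside OST, had 10.25 and 10.18 under Comp.4, 10.26 and 10.30 under Comp.2 and 10.25 and 10.31 under vehicle. Its Comp.4 arrays lay below both Comp.2 arrays, as for 21.6% of all genes, and overlapped the vehicle arrays. The phospholipid flippase gene ATP8B1 had 0.17 (SE 0.07) and the exporter ABCG2 0.10 (SE 0.07) for Comp.2 against vehicle, and neither passed in limma (adjusted p = 0.472 and 0.633). The anion exchanger gene SLC4A2 had -0.06 (SE 0.10) in that contrast.

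Of 15 measured genes of bile acid synthesis and conjugation none passed in limma in any contrast, with 1 under an unadjusted p of 0.05 for Comp.4, and 3 for Comp.2, against vehicle (all genes 16.5% and 11.2%). CYP7A1, the rate-limiting enzyme of the classical pathway and the gene that SHP represses, was dim, at 3.69 and 3.83 under Comp.4, 3.56 and 3.59 under Comp.2 and 3.63 and 3.60 under vehicle. CYP8B1, the sterol hydroxylase that sets the proportion of cholic acid, was dim as well, between 2.71 and 3.22 on all arrays. Bright members were HSD17B4, a peroxisomal enzyme of side chain shortening, between 8.94 and 9.15, and the acyl-CoA synthetase gene SLC27A2, between 9.75 and 10.08. SLC27A2 had 0.16 (SE 0.08) under Comp.4 and 0.26 (SE 0.08) under Comp.2 against vehicle, and neither passed in limma (adjusted p = 0.359 and 0.313). BAAT, which joins bile acids to glycine or taurine, was 0.40 lower on the log2 scale under Comp.4 than under Comp.2 (difference -0.40, SE 0.14) and did not pass in limma (adjusted p = 0.258). For Comp.4 against vehicle, ACOX2, an oxidase of side chain shortening, had 0.28 (SE 0.13) and SLC27A5, the bile acid-CoA ligase gene, had 0.13 (SE 0.09). The peroxisomal thioesterase gene ACOT8 had -0.26 (SE 0.10) for Comp.2 against vehicle, and these 3 genes did not pass in limma either. The list median was 0.12 for Comp.4 and 0.06 for Comp.2 against vehicle.

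Of 23 measured bile acid receptors, partners and regulators none passed in limma in any contrast, with 9 under an unadjusted p of 0.05 for Comp.4 (2 higher and 7 lower), and 5 for Comp.2, against vehicle. The shares of all genes were 16.5% and 11.2%. RXRA, a partner with which FXR binds DNA, had 6.18 and 6.23 under Comp.4, 6.38 and 6.22 under Comp.2 and 6.20 and 6.31 under vehicle, and its groups overlapped. RXRB, a further RXR gene, had 6.67 and 6.75 under Comp.4, 6.58 and 6.48 under Comp.2 and 6.44 and 6.55 under vehicle. It was 1 of the 2 higher genes, with 0.22 (SE 0.08) for Comp.4 against vehicle, and did not pass in limma (adjusted p = 0.259). FGFR4, the receptor of FGF19, was bright, at 8.16 and 7.96 under Comp.4, 8.00 and 8.03 under Comp.2 and 8.17 and 8.22 under vehicle, whereas its coreceptor KLB was dim, between 4.66 and 5.26. NR5A2, a nuclear receptor that works with FXR at several target promoters and is repressed by SHP, had 7.50 and 7.29 under Comp.4, 7.49 and 7.53 under Comp.2 and 7.57 and 7.60 under vehicle. GPBAR1, the membrane receptor of bile acids, had 4.99 and 5.00 under Comp.4, 4.76 and 4.73 under Comp.2 and 4.76 and 4.72 under vehicle. Its Comp.4 arrays lay above both vehicle arrays, as for 27.2% of all genes, and above both Comp.2 arrays, as for 23.7%. The gene was dim and did not pass in limma (0.26 against vehicle, adjusted p = 0.158).

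The 7 genes lower at an unadjusted p under 0.05 in limma for Comp.4 against vehicle were CREBBP, EP300, KMT2C, KMT2D, NCOA1, SIRT1 and FOXA2, and none of them passed after adjustment. CREBBP, an acetyltransferase, had a difference of -0.41 (SE 0.08) against vehicle and -0.42 against Comp.2, without passing in limma (adjusted p = 0.104 and 0.102). KMT2D, a histone methyltransferase of the complex that coactivates nuclear receptors, had -0.33 (SE 0.07, adjusted p = 0.112 in limma) against vehicle. KMT2C, its paralog, had -0.36 (SE 0.07, adjusted p = 0.106 in limma) against Comp.2. Both Comp.4 arrays of KMT2D, at 7.20 and 7.19, lay below the Comp.2 arrays at 7.47 and 7.52 and the vehicle arrays at 7.51 and 7.55. Taken separately, 21.6% of all genes lay so against Comp.2 and 22.2% against vehicle. FOXA2, a pioneer factor of liver genes, was lower in both treated groups, at 8.51 and 8.53 under Comp.4 and 8.60 and 8.59 under Comp.2, against 8.92 and 8.82 under vehicle. Each compound taken alone, 22.2% of all genes lay below vehicle for Comp.4 and 21% for Comp.2. The adjusted p of FOXA2 in limma was 0.112 for Comp.4 and 0.272 for Comp.2. For Comp.2 against vehicle, SIRT1, a deacetylase that acts on FXR, had -0.37 (SE 0.08, adjusted p = 0.189 in limma) and CARM1, an arginine methyltransferase, -0.21 (SE 0.08, adjusted p = 0.415 in limma). With a variance trend, where 5.47% of all genes passed for Comp.4 against vehicle, the 7 genes lower at an unadjusted p passed too. Among the brighter genes, where 7.49% passed, CREBBP, KMT2C, KMT2D and FOXA2 passed and NCOA1, SIRT1 and EP300 did not. None of the 7 passed with all probe sets, with only the groups compared or with a replicate block. The 7 genes were picked by their p in this same contrast, so these calls are no separate evidence.

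Among 21 further FXR targets, 1 rose under Comp.2 and none passed under Comp.4 against vehicle in limma, where all genes gave 0.196% and 0.147%. At an unadjusted p under 0.05 in limma, 6 were counted for Comp.4 (4 higher and 2 lower) and 8 for Comp.2 (5 higher and 3 lower), beside 16.5% and 11.2% of all genes. C3, the central complement component, had 8.04 and 8.07 under Comp.4, 8.68 and 8.74 under Comp.2 and 7.92 and 7.84 under vehicle. The Comp.2 arrays stood well above the other 4. C3 rose by 0.83 under Comp.2 (SE 0.07, 1.78-fold, adjusted p = 0.0209 in limma) and was lower under Comp.4 than under Comp.2 (-0.65, SE 0.07, adjusted p = 0.0299 in limma). C3 is also a target of inflammatory signals, and it passed neither contrast when any 1 array was left out, when all probe sets were tested together, when only the groups compared were fitted or with a replicate block. The Comp.4 against vehicle difference of C3 was 0.18 (SE 0.07, adjusted p = 0.282 in limma).

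Of the 21 targets, 13 had a positive difference for Comp.4 and 13 for Comp.2 against vehicle, beside 54.9% and 51.3% of all genes. The list was not split into targets that FXR raises and targets that it lowers, so these counts are no readout of FXR. Whether FXR has a part in any of these differences was not tested. The fibrinogen chain genes, which FXR induces in human liver cells, had negative differences against vehicle. FGG had 8.04 and 7.83 under Comp.4, 7.71 and 7.54 under Comp.2 and 8.13 and 8.17 under vehicle, a difference of -0.52 (SE 0.10) for Comp.2 against vehicle that did not pass in limma (adjusted p = 0.154). FGA had 9.26 and 9.10 under Comp.4, 9.34 and 9.30 under Comp.2 and 9.59 and 9.54 under vehicle, and FGB had 9.51 and 9.49 under Comp.4, 9.36 and 9.33 under Comp.2 and 9.80 and 9.69 under vehicle. In all 3 genes the arrays of both compounds lay below both vehicle arrays. Each compound taken alone, 22.2% of all genes lay so for Comp.4 and 21% for Comp.2. The share of genes that lay so for both was not counted. For Comp.4 against vehicle, the FGA difference was -0.39 (SE 0.08, adjusted p = 0.113 in limma) and the FGB difference was -0.24 (SE 0.07, adjusted p = 0.198 in limma). SDC1, a syndecan gene induced by FXR, had 8.69 and 8.79 under Comp.4, 8.92 and 9.03 under Comp.2 and 8.64 and 8.55 under vehicle. All arrays of SDC1 under either compound lay above the vehicle arrays. Each compound taken alone, 27.2% of all genes lay so for Comp.4 and 22.7% for Comp.2. For SDC1 limma's adjusted p was 0.413 for Comp.4 and 0.191 for Comp.2. APOE, the apolipoprotein E gene, had 0.31 (SE 0.12) for Comp.4 and 0.46 (SE 0.12) for Comp.2 against vehicle, with an adjusted p in limma of 0.266 and 0.271. DDAH1, a dimethylarginine hydrolase gene, had -0.24 (SE 0.10, adjusted p = 0.345 in limma) for Comp.4 against Comp.2.

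**Figure D3:**
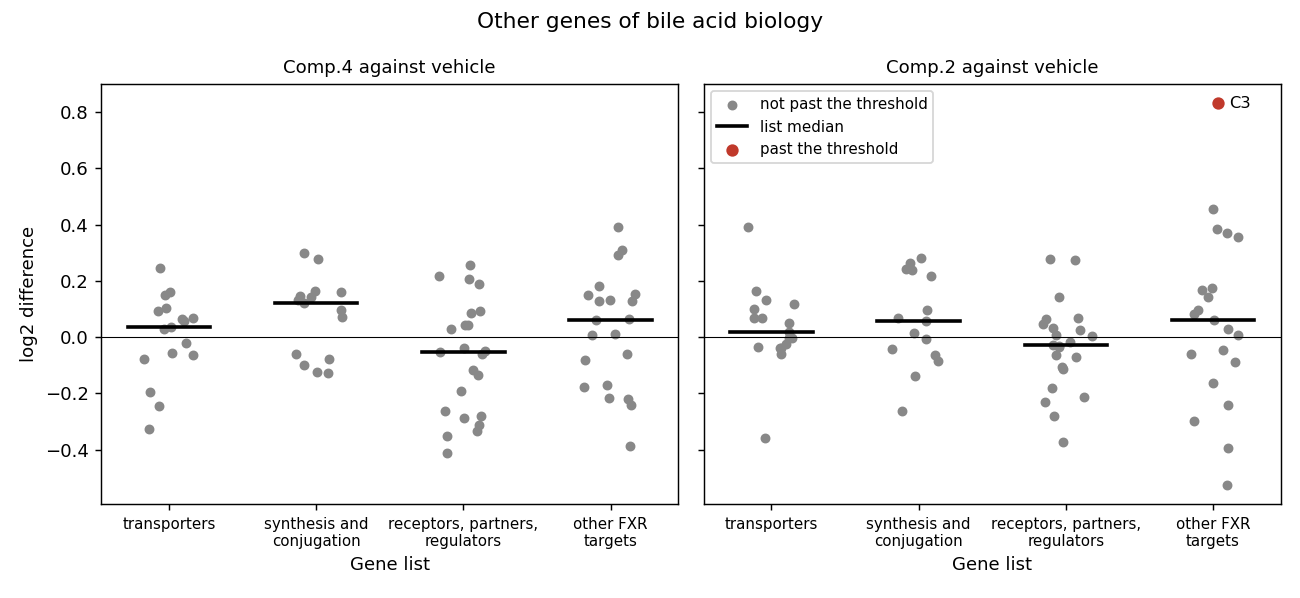
Log2 difference (vertical axis) of every measured gene of the 4 bile acid lists (horizontal axis) for Comp.4 against vehicle and Comp.2 against vehicle; grey points did not pass an adjusted p of 0.05, red points did, and black bars are list medians. C3 (0.83 under Comp.2) is the red point, and the medians lie between -0.05 and 0.12.

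Markers of the tissues in which these genes normally work were mostly dim. Of 8 hepatocyte markers 2, TTR and CPS1, were brighter than the 95th percentile of olfactory receptor genes, while ALB lay between 4.23 and 4.37 on all arrays. Of 8 ileal enterocyte markers 3 (VIL1, APOA4 and CDX2) exceeded it. The log2 levels of the 8 ileal markers summed to 35.5 and 35.4 under Comp.4, 34.6 and 34.6 under Comp.2 and 34.6 and 34.6 under vehicle. A positive Comp.4 against vehicle difference was found for all 8 of them, for 7 of the 8 hepatocyte markers and for 54.9% of all genes. The ileal median was 0.08, and none passed in limma (1 at an unadjusted p under 0.05). The 5 measured endothelial markers summed to 23.2 and 23.1 under Comp.4, 22.9 and 22.4 under Comp.2 and 22.5 and 22.6 under vehicle, with 2 at an unadjusted p under 0.05 in limma and none past the threshold. Of the 10 A549 epithelial markers 3 were at an unadjusted p under 0.05 in limma for Comp.4 against vehicle, CDH1 (-0.27), KRT18 (-0.19) and SFTPB (0.35), and none passed. All genes had 16.5% at that level. Whether these shifts have a part in the SLC51B values was not tested.

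The genes whose pattern was most like that of SLC51B were ranked by Pearson's r over the 6 arrays among 791 protein-coding genes brighter than the median gene with a range of at least 0.5 log2. The highest r were those of C19orf33 (0.991), the lysosomal protease gene CTSS (0.976), the interleukin receptor kinase gene IRAK2 (0.975), the keratinocyte envelope gene SPRR2F (0.972) and the prostaglandin E synthase gene PTGES (0.971). Over 6 arrays in 3 groups high values are common, and 28 of the 791 genes had an r above 0.9. CTSS had 7.24 and 7.31 under Comp.4, 6.97 and 7.14 under Comp.2 and 6.63 and 6.63 under vehicle, which is the order of SLC51B without overlap between the groups. C19orf33, the nearest in pattern, had 10.55 and 10.60 under Comp.4, 10.31 and 10.41 under Comp.2 and 10.05 and 10.17 under vehicle. None of the 5 passed in limma for Comp.4 against vehicle, where their adjusted p was 0.0636 to 0.0868. The other measured members were too dim to enter this ranking.

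**Figure D4:**
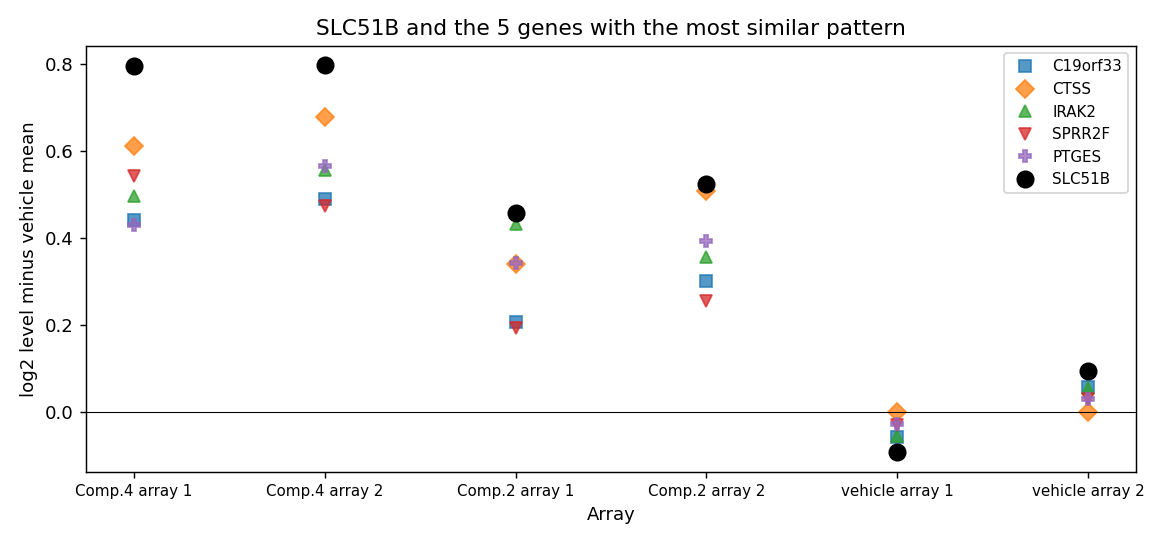
Log2 level minus the vehicle mean (vertical axis) on each of the 6 arrays (horizontal axis) for SLC51B (black circles) and the 5 genes with the highest Pearson's r to it. All 6 genes are highest on the Comp.4 arrays, intermediate on the Comp.2 arrays and lowest on the vehicle arrays, and SLC51B has the largest Comp.4 values.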

How the data were processed

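Transcript levels were measured in A549 cells on Affymetrix whole-transcript arrays, 2 per group, after labelling with biotin. The deposited values are log2 levels that the authors made with RMA, per the submitters' processing notes, which further list Transcriptome Analysis Console 2.0 and Affymetrix Expression Console 1.3.1. The genome build was not given in the sources used here. Of 53617 probe sets, 23871 carried 1 symbol in the platform annotation, 1842 carried several and 27904 were unnamed here. Symbols were updated through Entrez numbers (22569 found in RefSeq, GRCh38.p14), and the brightest probe set stood for a gene. Limma 3.58.1 in R 4.3.3 fitted a mean per group to all 6 arrays over 22395 genes, with 3 residual and 3.71 prior degrees of freedom, and was tested on simulated data. P-values are two-sided and Benjamini-Hochberg adjusted over all genes, with a threshold of 0.05. A permutation test of 2 against 2 arrays cannot reach 0.05 and was not run. Precision is limited by the number of arrays.

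The members and lists were chosen with earlier results of these data known. Named from each list were up to 4 genes past the threshold by size of change, filled to 3 with the largest changes among its brighter genes; all members and markers could be named, and the 5 genes most like SLC51B. Further pathway genes (ABCB11, ABCC3, ABCB1, SLCO4A1, CYP7A1, CYP8B1, HSD17B4, RXRA, RXRB, FGFR4, KLB, NR5A2, GPBAR1 and, in some contrasts, SIRT1, FGG, SDC1, NCOA1 and EP300) were chosen after their values were seen. Alternatives were a variance trend, brighter genes, protein-coding genes, all probe sets, the mean of probe sets, median scaling, only the groups compared, a replicate block and leaving out each array. Hepatocyte, ileal, fibroblast, endothelial and leukocyte marker lists were also written. Of the 5 measured fibroblast and 5 leukocyte markers none passed in any contrast.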

Additional observations from a re-analysis of the deposited data

Results flagged for a closer look

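C3 was the 1 gene of the 76 measured bile acid pathway genes for which the compounds differed in the test of their difference. It was lower under Comp.4 than under Comp.2, by -0.65 on the log2 scale (SE 0.07, adjusted p = 0.0299 in limma, both Comp.4 arrays below both Comp.2 arrays). No member of the axis moved in opposite directions under the compounds on all arrays.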

How the results depend on the processing

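SLC51B kept a positive difference in all 3 contrasts under every alternative run, which is no support for its rise. Its groups did not overlap, so leaving out 1 array could not change the sign. Most other alternatives left the difference itself unchanged. Leaving out 1 array gave 0.70 to 0.89 for Comp.4 against vehicle, 0.40 to 0.58 for Comp.2 against vehicle and 0.27 to 0.34 for Comp.4 against Comp.2. The count of members past the threshold for Comp.4 against vehicle, 1 as reported, was 0 over protein-coding genes, over all probe sets, with only the groups compared, with a replicate block and without any 1 array.

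Counts of pathway genes past the threshold moved with the setting. With a variance trend they were 10 for Comp.4 against vehicle, 7 for Comp.2 against vehicle and 9 for Comp.4 against Comp.2, and among the brighter genes 5, 5 and 4, against 0, 1 and 1 as reported. Calls over all genes moved with these settings too, to 1226, 388 and 1075 of 22395 with the trend and to 839, 233 and 716 of 11197 brighter genes. The pathway counts were 0 in all 3 contrasts with all probe sets, with only the groups compared and with a replicate block. There 14 to 20 of 76 had an unadjusted p under 0.05 in limma. The share of all genes at that level was not counted in these 3 settings, so nothing is read from those counts. In the fit as reported it was 16.5% for Comp.4 against vehicle, 11.2% for Comp.2 against vehicle and 15% for Comp.4 against Comp.2. The labels state no pairing of same-numbered arrays. Deviations of same-numbered arrays correlated at -0.04 to 0.03 across genes, so no strong shift shared by them was seen. That cannot tell whether the samples were handled as pairs. The cause of these shifts in the counts was not tested.

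For the other 5 members, 185 alternative values kept their sign and 10 changed sign, all when 1 array was left out. Most of the 185 could not change sign. Only median scaling and leaving out an array of a compared group alter these differences. Where the sign changed, the ranges with 1 array left out were -0.26 to 0.049 (SLC51A), -0.095 to 0.079 (NR0B2) and -0.13 to 0.036 (SLC10A1) for Comp.4 against vehicle. For Comp.2 against vehicle they were -0.051 to 0.11 (SLC51A), -0.026 to 0.0775 (FGF19), -0.11 to 0.053 (SLC10A1) and -0.036 to 0.11 (SLC10A2). For Comp.4 against Comp.2 they were -0.29 to 0.017 (SLC51A) and -0.041 to 0.0062 (SLC10A1). Dim signal limits these 5 genes.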
